A study of Mus musculus with 8 samples.

Results

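The 10 genes described here encode transcription factors that mark or direct the cardiac fibroblast lineage. They are *Tcf21*, *Twist1*, *Hand2*, *Tbx20*, *Tbx5*, *Gata4*, *Gata6*, *Wt1*, *Meox1* and *Prrx1*, and they were chosen by name. All 10 were found among the 18957 genes of the count tables, and all 10 passed the filter on low counts, as 13036 genes did. RNA was sequenced from cells of the ventricles of mice aged 3 to 4 weeks on a mixed C57BL/6 background, in 4 WT and 4 *Pdgfra-Cre:Lmna*F/F libraries, with 1 mouse per library. The cells were sorted by FACS as PDGFRA-positive and negative for the hematopoietic lineage markers. The mutant group, *Pdgfra-Cre:Lmna*F/F and here called LMNA-deficient, carried a BAC transgene that expressed Cre recombinase under the control of *Pdgfra*, and both *Lmna* alleles carried a floxed exon 2, whereas the WT littermates carried wild-type alleles alone. *Lmna* encodes lamins A and C, which line the inside of the nuclear envelope. Mice with the Cre transgene and intact *Lmna* were not analysed here, so the transgene and the *Lmna* deletion cannot be told apart. This driver does not limit the deletion to fibroblasts, since some embryonic myocytes also express *Pdgfra*. The comparison asked whether fibroblasts of this genotype carried other amounts of these transcripts.

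Most fibroblasts of the ventricle descend from the epicardium, the outer cell layer of the heart, and some from the endocardium. WT1, TCF21 and TBX18 are known from the epicardium and the cells that leave it, and TCF21 continues to mark resident fibroblasts after birth. Fibroblasts of the heart also carry GATA4, GATA6, HAND2, TBX20 and TBX5, better known as regulators of the cardiac myocyte, whereas TWIST1, PRRX1 and MEOX1 are mesenchymal factors found in fibroblasts of many organs.

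The targeted gene was measured in every library. *Lmna* stood at 331, 274, 483 and 374 CPM (counts scaled to the library size with TMM factors) in WT replicates 1 to 4 and at 126, 97.4, 129.97 and 90.4 CPM in the LMNA-deficient replicates 1 to 4. It was 3.30-fold lower in the latter, a log2 difference of -1.72 (SE 0.22, adjusted p = 0.00492 by the quasi-likelihood test of edgeR). Total counts ranged from 2080555 in WT replicate 2 to 12502949 in LMNA-deficient replicate 4. Of 13036 genes tested, 53 had an adjusted p under 0.05, of which 22 rose and 31 fell. *Pdgfra* itself was present at 1275 to 2108 CPM in WT and 1807 to 2761 CPM in LMNA-deficient libraries, and the summed level of 8 fibroblast markers spanned 84076 to 98752 and 81708 to 94998 CPM.

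Other cells left traces that differed between libraries. The 8 cardiomyocyte markers summed to 719 to 1026 CPM in WT, 319 to 893 CPM in 3 LMNA-deficient libraries and 5652 CPM in LMNA-deficient replicate 4, where the 8 immune markers also summed to 472 CPM, against 53.7 to 112 CPM in the other 3 and 48.6 to 187 CPM in WT. Endothelial markers summed to 265 to 440 CPM in WT and 170 to 471 CPM in LMNA-deficient libraries, mural markers to 249.8 to 431 and 212 to 406 CPM, and Schwann cell markers to 282 to 399 and 368 to 460 CPM. Cycling genes summed to 18.3, 303, 94.9 and 22.9 CPM in WT replicates 1 to 4 and to 8.24 to 24.5 CPM in LMNA-deficient libraries. Of 7 tested cycling genes, 0 had an adjusted p under 0.05 in the edgeR test. At an unadjusted p under 0.05 there were 4, all with lower fitted levels (11.9% of all genes in both directions). Below WT without overlap lay 1 (3.97% of all genes). Epicardial markers were near absent, at 14.1 to 35.7 CPM in WT and 8.58 to 20.5 CPM in LMNA-deficient libraries over 8 genes. A list of 20 genes chosen for the response to tissue dissociation summed to 2937 to 6295 CPM in WT. In LMNA-deficient libraries it summed to 8805 to 14024 CPM, with no overlap. Of these 20, 3 rose in the edgeR test (0.169% of all genes), 14 had an unadjusted p under 0.05, all with higher fitted levels (11.9% of all genes in both directions), and 13 lay above WT without overlap (4.06% of all genes). Why these genes differed between the genotypes was not tested. Their part in the levels of the 10 factors, of *Id1* and of the other genes named here was not tested either. RNA of the Y-linked genes *Ddx3y*, *Uty*, *Kdm5d* and *Eif2s3y* summed to 143 to 273 CPM in WT replicates 1, 2 and 4 and LMNA-deficient replicate 4, and to 1.96 CPM or less in the other 4 libraries. WT replicate 3 and LMNA-deficient replicate 4 were thus each alone in their genotype.

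Promoter sequences of 190 bases, which begin 250 bases before the RefSeq start site (GRCm38.p6), are given for the genes with the highest level per kilobase, *Tcf21* and *Tbx20*, for *Prrx1*, whose genotype groups did not overlap, and for *Hand2*, whose window held the most motif matches. The last 60 bases before the start site are left out, since the GENCODE genes of *Tcf21* and *Prrx1* begin there. The sequences are written 5′ to 3′ on the strand of the gene, and capitals mark matches, on either strand, to the E-box CANNTG, the GATA motif AGATAA, the T-box motif AGGTGT or the homeodomain motif TAATTA. The sequences lie at chr10:22820204-22820393 on the minus strand for *Tcf21*, chr9:24774364-24774553 on the minus strand for *Tbx20*, chr1:163313711-163313900 on the minus strand for *Prrx1* and chr8:57320733-57320922 on the plus strand for *Hand2*.
Tcf21: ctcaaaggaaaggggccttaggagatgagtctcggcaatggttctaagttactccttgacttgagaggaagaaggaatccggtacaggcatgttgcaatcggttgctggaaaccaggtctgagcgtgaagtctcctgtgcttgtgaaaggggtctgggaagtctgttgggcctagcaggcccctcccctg
Tbx20: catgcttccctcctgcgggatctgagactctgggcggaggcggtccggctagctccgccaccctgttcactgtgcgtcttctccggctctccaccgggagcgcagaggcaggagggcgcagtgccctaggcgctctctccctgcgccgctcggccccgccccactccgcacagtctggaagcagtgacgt
Prrx1: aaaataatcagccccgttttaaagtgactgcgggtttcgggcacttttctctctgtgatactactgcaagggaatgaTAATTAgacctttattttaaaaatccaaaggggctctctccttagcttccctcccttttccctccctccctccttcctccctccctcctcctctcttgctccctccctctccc
Hand2: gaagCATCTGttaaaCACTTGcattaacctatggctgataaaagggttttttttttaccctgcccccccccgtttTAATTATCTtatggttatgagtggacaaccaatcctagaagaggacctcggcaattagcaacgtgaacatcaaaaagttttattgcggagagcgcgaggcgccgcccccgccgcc

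The window of *Prrx1* held 1 homeodomain motif. The *Hand2* window held 2 E-boxes and 1 GATA motif that overlapped 1 homeodomain motif, and the *Tcf21* and *Tbx20* windows held no match. In the same window of 32851 RefSeq promoters, 57.3% held the E-box, 8.06% the GATA motif, 9.41% the T-box motif and 4.02% the homeodomain motif. Of the 10 factors, 5 had a promoter in the table, and the fifth, *Twist1*, held no match in this window. These matches describe letters in the window and not binding.

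To compare the factors with each other, CPM were divided by the length of the merged exons in kilobases (RPKM). *Tcf21* led in WT fibroblasts with 96.0 ± 33.9 RPKM, followed by *Tbx20* with 81.9 ± 18.3, *Meox1* with 61.1 ± 29.1 and *Gata4* with 37.1 ± 6.77 RPKM (SD, n = 4). All 4 stood above the 91st percentile of the tested genes, at 97.2, 96.5, 95.3 and 91.3. A middle group held *Gata6* (14.1 ± 2.42 RPKM), *Twist1* (13.7 ± 3.32), *Prrx1* (13.3 ± 0.650) and *Hand2* (8.44 ± 2.05). *Wt1* and *Tbx5* came last, at 0.824 ± 0.930 and 0.510 ± 0.444 RPKM. Each of the first 3 genes exceeded the next in 3 of 4 WT libraries, so their order was not the same in every mouse. *Gata4* exceeded *Gata6*, *Prrx1* exceeded *Hand2*, and *Hand2* exceeded *Wt1* in 4 of 4, whereas *Twist1* exceeded *Prrx1* and *Wt1* exceeded *Tbx5* in 2 of 4.

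In LMNA-deficient fibroblasts, *Tbx20* had the highest mean, 103 ± 49.9 RPKM, but it exceeded *Tcf21* (94.8 ± 40.7 RPKM) in 1 of 4 libraries. *Meox1* (44.5 ± 6.01), *Gata4* (34.1 ± 7.60), *Twist1* (16.3 ± 8.25), *Gata6* (14.2 ± 1.96), *Prrx1* (11 ± 1.92) and *Hand2* (5.70 ± 1.65) followed, and *Tbx5* (0.679 ± 0.405) and *Wt1* (0.411 ± 0.295) again came last. With the longest protein-coding transcript as the length, the upper 4 places and the eighth were the same in both genotypes, and *Prrx1* passed *Twist1*. In the LMNA-deficient libraries *Gata6* also passed *Twist1*, and *Wt1* passed *Tbx5*. The levels themselves moved more, in WT to 28.4 RPKM for *Gata6*, 22.5 for *Prrx1* and 1.65 for *Wt1*.

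**Figure D1:**
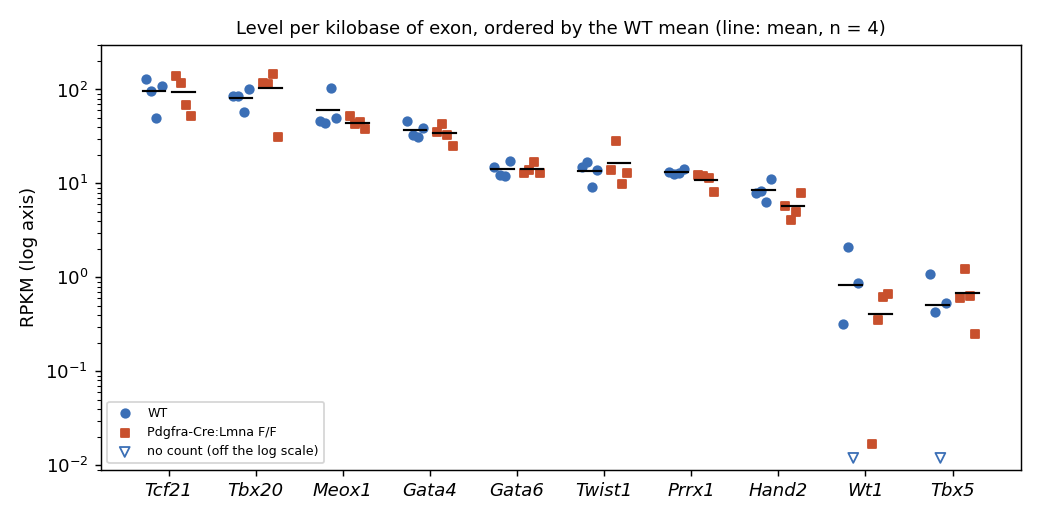
Level of the 10 factors in RPKM on a log axis, 1 point per library and a line at the mean of 4. *Tcf21* and *Tbx20* head the order in both genotypes, and *Wt1* and *Tbx5* lie below 3 RPKM in every library. Open triangles mark the libraries without a count.

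Between the genotypes, 0 of the 10 factors had an adjusted p under 0.05 in the edgeR test, where 0.407% of all tested genes did (0.169% higher and 0.238% lower). At an unadjusted p under 0.05 the count was 0 as well, beside 11.9% of all genes, and DESeq2 and limma-voom also called 0. In LMNA-deficient fibroblasts 4 factors had a higher and 6 a lower fitted level, with a median log2 difference of -0.07 (0.02 over all genes). Groups did not overlap for 1 of the 10, *Prrx1*, which was below WT, beside 8.03% of all genes (3.97% below and 4.06% above). The 95% interval of the fold change lay inside 2-fold in either direction for 4 of the 10, *Tcf21*, *Gata4*, *Gata6* and *Prrx1*, as it did for 41.6% of all genes. For the other 6, a 2-fold difference in at least 1 direction lay within the interval. In these bulk samples, fewer cells of a type and less RNA per cell cannot be told apart.

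**Figure D2:**
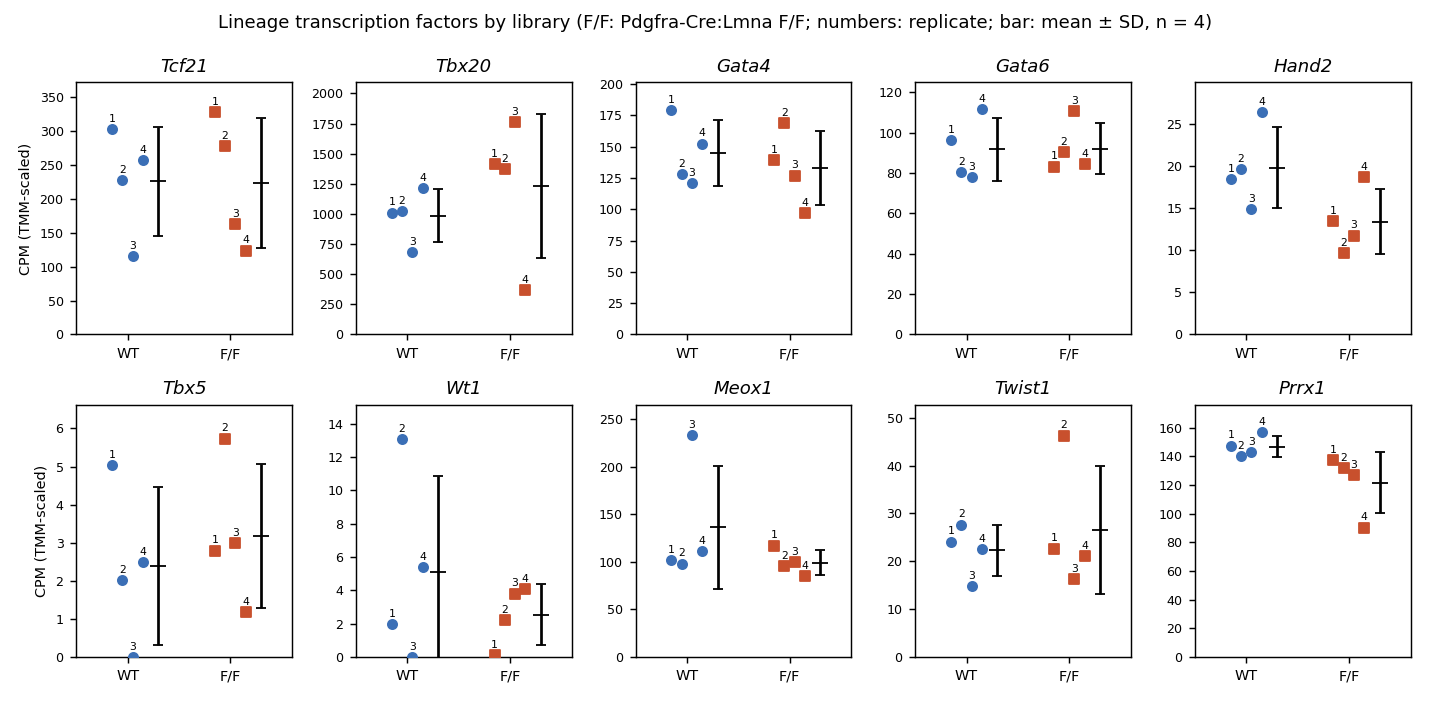
CPM of each factor in the 4 WT and the 4 LMNA-deficient libraries (F/F), numbered by replicate, with the mean and the SD (n = 4; bars are clipped at 0). The groups overlap in 9 of 10 panels, and *Prrx1* is the exception.

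Of the basic helix-loop-helix (bHLH) factors, *Tcf21* encodes the factor required for epicardial cells to become fibroblasts. Its gene (ENSMUSG00000045680.8, chr10:22817281-22820174, minus strand) was present at 302, 227, 115 and 257 CPM in WT replicates 1 to 4 and at 327, 278, 162 and 124 CPM in the LMNA-deficient replicates. The lowest level was that of WT replicate 3 and the highest that of LMNA-deficient replicate 1, so each genotype spanned almost the whole range. The log2 difference was -0.02 (SE 0.32, 95% interval -0.71 to 0.67, adjusted p = 0.990 by edgeR), which corresponds to 0.612-fold to 1.59-fold.

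*Twist1* encodes a bHLH factor of embryonic mesenchyme and of the epithelial-to-mesenchymal transition (ENSMUSG00000035799.6, chr12:33957671-33959829, plus strand). WT replicates had 24.1, 27.7, 14.9 and 22.5 CPM and LMNA-deficient replicates 22.7, 46.3, 16.2 and 21.1 CPM. Only LMNA-deficient replicate 2 stood above the WT range. *Twist1* had a log2 difference of 0.26 (SE 0.36, adjusted p = 0.850 by edgeR), and without that library it was -0.15.

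*Hand2* encodes a bHLH factor of the ventricles and of limb and branchial mesenchyme (ENSMUSG00000038193.4, chr8:57320983-57324633, plus strand). Its levels were 18.5, 19.6, 14.9 and 26.4 CPM in WT and 13.4, 9.70, 11.7 and 18.7 CPM in LMNA-deficient replicates. In LMNA-deficient, 3 of 4 libraries lay below every WT library, and replicate 4 lay within the WT range. For *Hand2* the log2 difference was -0.57 (SE 0.36, 95% interval -1.34 to 0.20, adjusted p = 0.592 by edgeR), and it was -0.32 with the Y-linked level as a covariate, -0.34 after thinning to the smallest total and -0.89 without WT replicate 3 and LMNA-deficient replicate 4. *Hand2os1*, annotated on the opposite strand, covers most of the gene. Genes on the opposite strand also overlap *Tcf21* (*Gm10824*, which spans the whole gene), *Gata6* (*1010001N08Rik*), *Meox1* (*Gm11551*) and *Prrx1* (*Gm20471*), and *Gm26523* and *Gm37644* overlap *Prrx1* on its own strand. None of these is in the count tables, and the sources used here do not give the strand setting of the counting, so reads of the overlapping genes cannot be told apart from those of these 5 factors.

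Of the T-box factors, *Tbx20* encodes a factor needed for chamber growth and valve formation (ENSMUSG00000031965.15, chr9:24718138-24774303, minus strand). It was present at 1011, 1022, 684 and 1215 CPM in WT and at 1415, 1372, 1761 and 370.5 CPM in LMNA-deficient replicates. In LMNA-deficient, 3 libraries exceeded every WT library and replicate 4 was below every WT library, so that the same genotype held the highest and the lowest values. For *Tbx20* the log2 difference was 0.32 (SE 0.36, 95% interval -0.44 to 1.08, adjusted p = 0.809 by edgeR), and leaving out single libraries moved it from 0.10 without LMNA-deficient replicate 3 (adjusted p = 0.966 by edgeR) and 0.18 without WT replicate 3 to 0.62 without LMNA-deficient replicate 4 (adjusted p = 0.267 by edgeR). The library with the lowest *Tbx20* was that with the highest sum of cardiomyocyte markers, at 5652 CPM, and the part of those cells in the *Tbx20* level was not tested. *Tbx20* alone made up 48.7 to 58.9% of the summed CPM of the 10 factors in WT, against 62.4 to 72.7% in LMNA-deficient replicates 1 to 3 and 41.3% in replicate 4. These shares are not corrected for length: *Tbx20* has 12 kb of merged exons, against 2.35 kb for *Tcf21*.

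*Tbx5*, which encodes a factor of the atria, the left ventricle and the forelimb (ENSMUSG00000018263.11, chr5:119832668-119885219, plus strand), was near the limit of detection. It had 54, 4, 0 and 24 counts in WT and 27, 55, 26 and 14 counts in LMNA-deficient replicates, or 0 to 5.05 and 1.17 to 5.74 CPM. The 0 in WT replicate 3 allows up to 3 counts, or 0.479 CPM at its depth, by counting error alone. The interval of the log2 difference, -2.15 to 2.93, includes 4-fold differences in both directions, and the WT libraries differed among themselves by more than counting error.

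Of the zinc finger factors, *Gata4*, an early regulator of heart formation (ENSMUSG00000021944.15, chr14:63198922-63271692, minus strand), was present at 179, 128, 121 and 152 CPM in WT and at 139, 169, 127 and 97.2 CPM in LMNA-deficient replicates. Replicate 4 of LMNA-deficient alone lay outside the WT range. The log2 difference was -0.13 (SE 0.21, 95% interval -0.58 to 0.33, adjusted p = 0.881 by edgeR), and it ran from -0.26 without LMNA-deficient replicate 2 to -0.0054 without WT replicate 1 and -0.0042 without LMNA-deficient replicate 4.

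*Gata6*, its close paralog (ENSMUSG00000005836.10, chr18:11052064-11085635, plus strand), had 96.5, 80.5, 78.0 and 112 CPM in WT and 83.2, 90.3, 111 and 84.5 CPM in LMNA-deficient replicates. All LMNA-deficient values lay within the WT range. This gave a log2 difference of 0.00 (SE 0.20, 95% interval -0.42 to 0.43, adjusted p = 0.997 by edgeR), which corresponds to 0.746-fold to 1.35-fold.

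*Wt1* encodes the Wilms tumor factor of the epicardium (ENSMUSG00000016458.14, chr2:105126529-105173616, plus strand). It had 21, 26, 0 and 52 counts in WT and 1, 21, 33 and 49 counts in LMNA-deficient replicates, or 1.96, 13.1, 0 and 5.38 CPM and 0.103, 2.19, 3.80 and 4.08 CPM. The highest and the lowest CPM were both those of WT libraries. Replicate 2 of WT, with the most *Wt1*, also had the highest sum of epicardial markers (35.7 CPM), and replicate 3, without a *Wt1* count, the lowest of WT (14.1 CPM). The LMNA-deficient libraries went the other way. Among them, replicate 1 had the highest sum (20.5 CPM) and the least *Wt1* (0.103 CPM). Replicate 4 had the lowest sum (8.58 CPM) and the most *Wt1* (4.08 CPM). The part of epicardial cells in the *Wt1* level was not tested. Its log2 difference was -0.96, with a 95% interval of -3.75 to 1.83.

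Of the homeodomain factors, *Meox1* encodes a regulator of somite development that is also known from activated fibroblasts (ENSMUSG00000001493.9, chr11:101877510-101894374, minus strand). Levels were 102, 98.1, 233 and 112 CPM in WT and 117, 95.1, 99.5 and 85 CPM in LMNA-deficient replicates. WT replicate 3 stood alone, and the other 7 libraries lay between 85 and 117 CPM. The log2 difference of -0.46 (SE 0.27, adjusted p = 0.550 by edgeR) had the lowest unadjusted p of the 10 factors, 0.108, and it was -0.07 without WT replicate 3.

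*Prrx1* encodes a paired-related factor of limb bud and craniofacial mesenchyme that is kept in stromal fibroblasts (ENSMUSG00000026586.16, chr1:163245119-163313710, minus strand). WT replicates had 148, 140.4, 143 and 157 CPM and LMNA-deficient replicates 137, 132, 127 and 90.2 CPM. All LMNA-deficient libraries were lower than all WT libraries, by a small gap for 3 of them, and replicate 4 was farthest. The log2 difference was -0.27 (SE 0.19, 95% interval -0.68 to 0.13, adjusted p = 0.631 by edgeR), and without LMNA-deficient replicate 4 it was -0.16. *Prrx1* also varied least within a genotype, with an SD of 0.20 in log2 CPM, whereas *Gata6* had 0.22, *Gata4* 0.30, *Tcf21* 0.63 and *Tbx20* 0.77 (median of all genes 0.49).

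**Figure D3:**
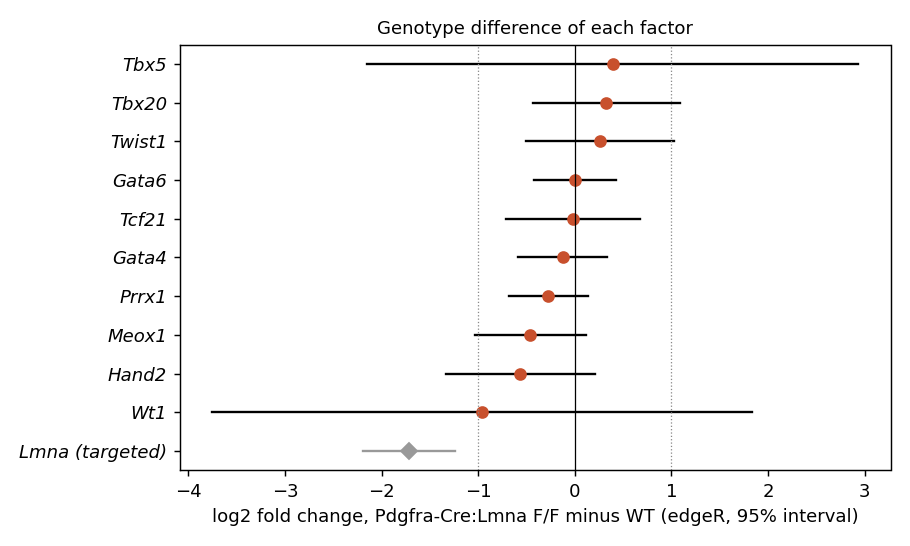
Log2 fold change of each factor (LMNA-deficient minus WT) with its 95% interval from edgeR, and *Lmna* in grey, with dotted lines at 2-fold. Every interval of the 10 factors includes 0, that of *Lmna* does not, and those of *Tbx5* and *Wt1* are the widest.

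Of the 10 factors, WT replicate 3 held the lowest level of 5 and LMNA-deficient replicate 4 the lowest level of 4. Among the 4 libraries with Y-linked RNA, *Tbx20* in LMNA-deficient replicate 4 (370.5 CPM) was below WT (1011 to 1215 CPM), whereas among the 4 without it, the LMNA-deficient libraries (1372 to 1761 CPM) were above WT replicate 3 (684 CPM). *Tcf21*, *Gata4*, *Tbx5* and *Twist1* showed the same opposite order, while *Meox1* and *Prrx1* were lower in LMNA-deficient in both sets. With the Y-linked level as a covariate, the log2 difference of *Tbx20* was -0.14 (adjusted p = 0.929 by edgeR). Without WT replicate 3 and LMNA-deficient replicate 4 together, the log2 difference was 0.48 for *Tbx20*, -0.04 for *Tcf21*, -0.89 for *Hand2* and -0.17 for *Prrx1*, and again 0 factors were called. Since 1 library per genotype stands apart, the sex of the mouse and the library cannot be told apart here.

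**Figure D4:**
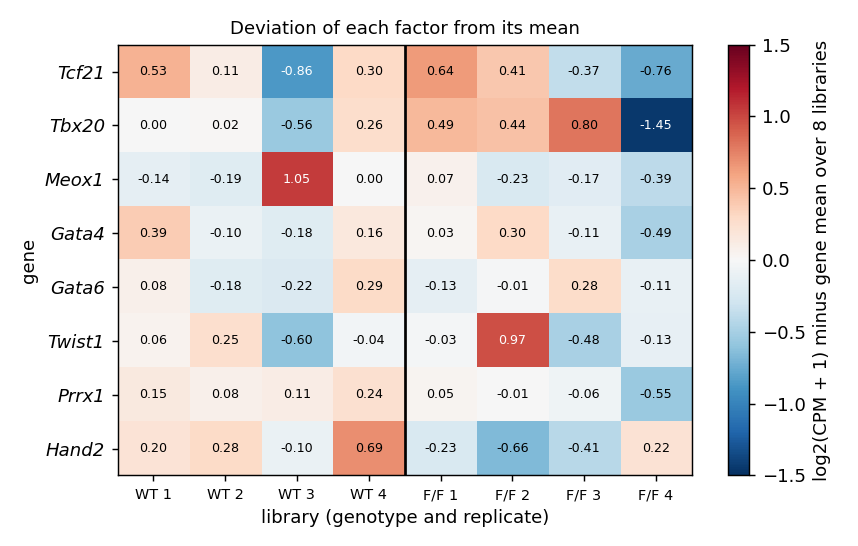
Difference of log2(CPM + 1) of each factor from its mean over the 8 libraries, with numbers in the cells, for the 8 factors with more than 10 counts in every library. WT 3 is low for *Tcf21* (-0.86) and high for *Meox1* (1.05), and F/F 4 (LMNA-deficient replicate 4) is low for *Tbx20* (-1.45).

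Ratios of paralogs within a library do not depend on the scaling between libraries, but those that rest on few counts can move with depth. The genotype difference of *Prrx1* to *Prrx2* was 0.40 in log2, and 0.011 after thinning to the smallest total. *Gata4* exceeded *Gata6* by 0.66 ± 0.18 in WT and 0.51 ± 0.37 in LMNA-deficient libraries in log2 counts (SD, n = 4), which per kilobase of merged exons is 2.63-fold and 2.38-fold. That fold depends on the length used: with the longest protein-coding transcript, *Gata4* stood at 42.6 RPKM and *Gata6* at 28.4 RPKM in WT. *Twist1* exceeded *Twist2* by 1.5 ± 0.75 and 2.08 ± 0.51, and *Meox1* exceeded *Meox2* by 2.29 ± 0.31 and 2.25 ± 0.39. *Prrx1* exceeded *Prrx2* by 3.74 ± 0.63 and 4.14 ± 1.35, and *Tbx5* was below *Tbx20* in every library. The log2 ratio of *Tbx5* to *Tbx20* was -7.63, -8.82 and -8.90 in WT replicates 1, 2 and 4 and -8.57 ± 0.60 in LMNA-deficient libraries, while WT replicate 3 had no *Tbx5* count, so that its ratio, and with it the test of this pair, depends on the offset of 0.5 counts. Over these 5 pairs the two-sided exact permutation p lay between 0.286 and 0.857 (adjusted 0.786 to 0.857), where 4 against 4 libraries can reach 0.0286. After adjustment over 5 pairs, a shift of 1 pair alone could not have passed the threshold, so the values describe the ratios and say nothing of their stability. *Hand1*, the paralog of *Hand2*, had 0, 0, 0 and 2 counts in WT and 0, 38, 43 and 0 counts in LMNA-deficient replicates and was not tested.

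Paralogs, dimer partners, cofactors and inhibitors of the 10 factors formed a list of 29 genes, of which 23 were tested. Of these 23, 5 had an unadjusted p under 0.05 (11.9% of all genes) and 1 an adjusted p under 0.05 in the edgeR test (0.407% of all genes). *Id1* alone was called: it was 31.9, 26.2, 32.1 and 34.7 CPM in WT and 57.9, 78.1, 128 and 64.7 CPM in LMNA-deficient replicates, with a log2 difference of 1.39 (SE 0.27, adjusted p = 0.0368 by edgeR). That call was lost in 8 of 20 alternatives, among them leaving out any WT library or LMNA-deficient replicate 2 or 3 (log2 difference 1.1 to 1.44, highest adjusted p = 0.129 by edgeR), while the direction was the same in all 20. ID proteins dimerize with E proteins, the partners of TCF21, TWIST1 and HAND2, and keep them from DNA. *Id3* had a log2 difference of 1.47 (SE 0.31, adjusted p = 0.0568 by edgeR), and it was called in 11 of 20 alternatives, such as DESeq2 and voom. The genes of the E proteins had log2 differences of -0.53 for *Tcf3*, 0.19 for *Tcf4* and -0.01 for *Tcf12*, none of them called by edgeR. *Tcf3* had 109.8, 108, 125 and 111 CPM in WT and 99.7, 96.2, 52.8 and 65.4 CPM in LMNA-deficient replicates, without overlap (SE 0.22, adjusted p = 0.370 by edgeR). *Tcf12* was the steadiest, at 172 to 187 CPM in WT and 169 to 201 CPM in LMNA-deficient libraries.

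*Tbx18*, which encodes a T-box factor of the epicardium, was 29.3, 33.7, 31.3 and 35.2 CPM in WT and 59.3, 51.1, 70.1 and 44.5 CPM in LMNA-deficient replicates. The groups did not overlap, but the log2 difference of 0.80 (SE 0.23) had an adjusted p of 0.171 by edgeR. *Tbx2*, a T-box repressor, had 10.9 to 17.9 CPM in WT and 18.4 to 40.8 CPM in LMNA-deficient libraries (log2 difference 0.82, SE 0.34, adjusted p = 0.352 by edgeR). *Zfpm2*, which encodes the GATA4 cofactor FOG2, was at 38.3 to 64.3 and 37.4 to 55.7 CPM. In the list as a whole, 12 of 23 genes were higher and 11 lower, with a median log2 difference of 0.09. Groups did not overlap for 5 of the 23 (4 above WT and 1, *Tcf3*, below), beside 8.03% of all genes.

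Of 28 other transcription factors of mesenchyme, 27 were tested and 0 were called by edgeR, with 3 at an unadjusted p under 0.05, beside 11.9% of all genes. These 3 had lower fitted levels in LMNA-deficient libraries. *Foxs1*, a forkhead gene, had 61.9, 39.2, 90.8 and 39.5 CPM in WT and 17.8, 34.7, 19.3 and 7.92 CPM in LMNA-deficient replicates (log2 difference -1.54, SE 0.40, adjusted p = 0.129 by edgeR). *Heyl*, a Notch target, had 387, 399, 237 and 272 CPM and 209, 145, 196 and 46.7 CPM (log2 difference -1.12, SE 0.36, adjusted p = 0.208 by edgeR). Neither gene overlapped between the genotypes (8.03% of all genes), whereas *Bnc2* did (log2 difference -1.17, adjusted p = 0.258 by edgeR). DESeq2 called *Foxs1* (adjusted p = 0.0172) and *Heyl* (adjusted p = 0.0416) among 303 of all 13036 genes.

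Genes reported as targets of the 10 factors were 11, of which 8 were tested and 0 called by edgeR. *Postn*, which encodes the matricellular protein periostin, was the 1 of 8 with an unadjusted p under 0.05 (11.9% of all genes), at 254, 304, 595 and 204 CPM in WT and 455, 568, 293 and 3040 CPM in LMNA-deficient replicates. Its log2 difference of 1.68 (SE 0.60, adjusted p = 0.264 by edgeR) was 0.37 without LMNA-deficient replicate 4. *Aldh1a2* and *Spry1*, reported targets of WT1, had log2 differences of -0.02 and -0.11.

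**Figure D5:**
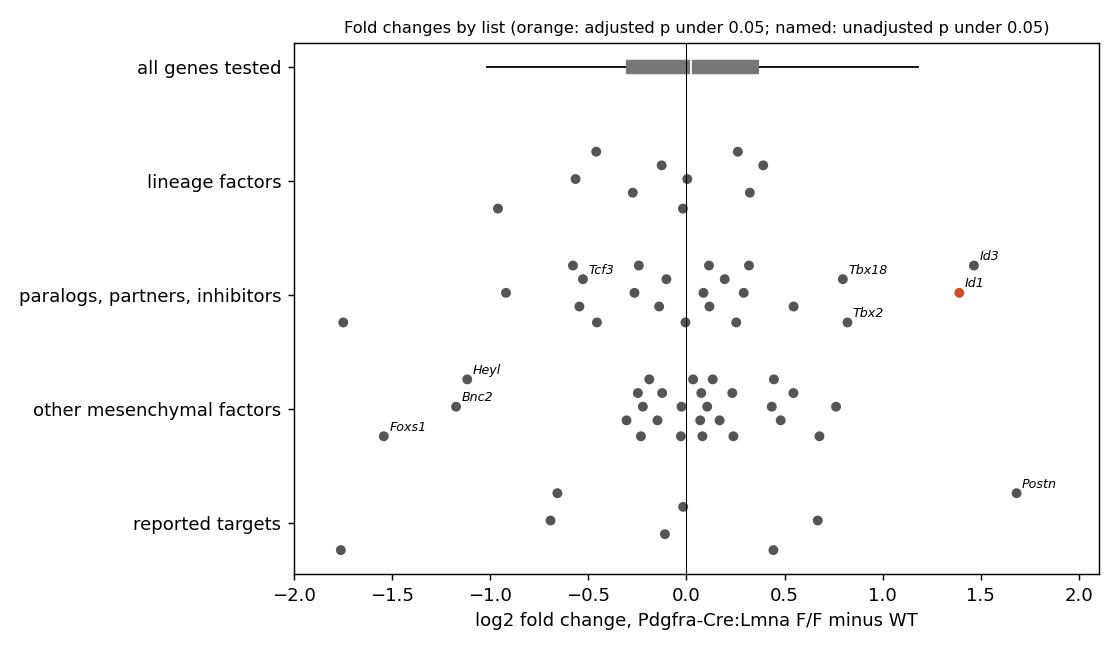
Log2 fold change (LMNA-deficient minus WT) of every tested gene of the 4 lists, with all genes tested above (median, quartiles as a thick bar, and a thin line from the 5th to the 95th percentile). *Id1* is the gene with an adjusted p under 0.05, and the 10 lineage factors lie between -0.96 and 0.39.

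The genes whose log2 CPM, centred over the 8 libraries, differed least from *Meox1* were *Naaa*, *Zfp280b* and *Otud6b*, with root mean square differences of 0.146, 0.148 and 0.161. For *Hand2* they were *Elmsan1* (0.152), *Aldoa* (0.168) and *Wbp2* (0.173). These 2 factors were taken because they had the lowest p of the 10, and likeness over 8 libraries is a description.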

How the data were processed

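The authors aligned 150 bp paired-end reads of ribosome-depleted, strand-specific libraries to mm10 with HISAT2, counted them with featureCounts on GENCODE genes, and deposited whole-number counts per gene symbol, not normalized. Their RUV and DESeq2 steps are not part of the deposited counts. The genotypes were compared with edgeR 4.0.16 under R 4.3.3 (TMM factors, filterByExpr, quasi-likelihood test with genotype alone, Benjamini-Hochberg adjustment over 13036 genes). An adjusted p under 0.05 is a call. Exon lengths came from GENCODE M21 (GRCm38). Paralog ratios used log2 counts with an offset of 0.5. Procedures were tested on simulated data. Alternatives were DESeq2 1.42.0, voom of limma 3.58.1, other factors and filters, RUVr with 1 factor, the Y-linked level as covariate, a replicate block, thinning, and leaving out each library. Leaving out 2 libraries together and the transcript length were chosen after seeing the data.

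The 10 members and the lists were chosen with earlier results of these data known. Named genes are the members, *Lmna*, paralog partners, defining markers, list genes called or with an unadjusted p under 0.05, and the 3 nearest genes of 2 members. Annotated genes that overlap a factor and the Y-linked genes are named as well. Genes named beyond this (*Tcf4*, *Tcf12*, *Zfpm2*, *Aldh1a2*, *Spry1*) were chosen after their values were seen. The p-values test a difference between the genotypes against the spread between libraries, each from a different mouse. How much of that spread came from the mice and how much from the preparation of the cells was not tested.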

Additional observations from a re-analysis of the deposited data

Results flagged for a closer look

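Of 64 groups of 4 libraries, 5 held a library far from the other 3, and chance flags about 1 in 20. *Meox1* stood at 233 CPM in WT replicate 3, against 98.1 to 112 CPM in the other WT libraries. The log2 ratio of *Meox1* to *Meox2* was 2.75 in the same library, against 2.07 to 2.19. *Postn* stood at 3040 CPM in LMNA-deficient replicate 4, against 293 to 568 CPM. Summed cardiomyocyte markers reached 5652 CPM in that library, against 319 to 893 CPM, and summed immune markers 472 CPM, against 53.7 to 112 CPM.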

How the results depend on the processing

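The count of called lineage factors was 0 under all 20 alternatives. Counts of called paralog ratios are not compared across alternatives, since after adjustment over 5 pairs no shift of 1 pair alone could pass in these designs. Of 196 values of single factors, 174 kept their direction and 22 turned it, none past the threshold, with a lowest adjusted p of 0.165 (*Meox1*, Y-linked covariate). Those that turned were *Tcf21* (0.058 with RUVr in edgeR and in DESeq2, 0.077 thinned), *Tbx20* (-0.14 with the Y-linked covariate), *Gata6* (-0.12 with voom, -0.0028 with upper-quartile factors, -0.017 without a filter, -0.032 without WT replicate 3 and LMNA-deficient replicate 4) and *Wt1* (0.33 and 0.39 with RUVr in edgeR and DESeq2, 1.2 with the covariate). Leaving out each library gave *Tcf21* -0.27 to 0.18, *Gata6* -0.094 to 0.11, *Tbx5* -0.062 to 1.09, *Wt1* -1.39 to 0.041 and *Twist1* -0.15 to 0.44. The ratio differences then ran from -0.0072 to 0.86 (*Prrx1* to *Prrx2*), -0.14 to 0.15 (*Meox1* to *Meox2*) and -0.12 to 1.69 (*Tbx5* to *Tbx20*). The cause was not tested. *Tbx5* and *Wt1* were absent from 2 alternatives, thinning and the filter of 10 counts.

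Called genes among the paralogs, partners and inhibitors were 1, but 2 with DESeq2, voom, no filter, 10 counts, RUVr (edgeR and DESeq2), thinning and without the 2 libraries, 0 with the Y-linked covariate, and 0 to 2 on leaving out each library. Among other mesenchymal factors they were 2 with DESeq2, no filter and RUVr in DESeq2, and 1 with RUVr in edgeR and with the covariate. Among reported targets there was 1 without a filter. Over all genes, calls were 53, but 303 with DESeq2, 126 with voom, 274 without a filter, 85 and 456 with RUVr in edgeR and DESeq2, 116 with the covariate, 130 without the 2 libraries, and 13 to 76 on leaving out each library.

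The sources used here do not say whether replicate numbers mark pairs. After centring on the genotype, same-numbered libraries correlated at -0.027, -0.030, -0.0041 and 0.040, and library 4 alone correlated best with its own number. The best correlations were also near 0 (0.018 to 0.040), so these values cannot decide whether the libraries were paired. With the replicate block, 0 factors and 36 genes in all were called, and *Id3* (adjusted p = 0.0401) was called in place of *Id1* (0.0764). *Tbx20* was then at 0.18. *Tbx5* and *Wt1* rest on 0 to 55 counts per library and also have the widest spread of the 10 factors within a genotype (SD 1.51 and 2.15 in log2 CPM).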
